A study of Mus musculus with 6 samples.

Results

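The genes of the Wnt ligands, their receptors and the secreted proteins that tune them were read on 6 one-colour arrays of mouse fallopian tube (FT) organoids, hollow balls of oviduct epithelium cultured in gel. The 42 genes were taken as a fixed list by symbol, as 19 Wnt ligands, 10 frizzled receptors, the co-receptors Lrp5 and Lrp6, the receptors Ror1, Ror2 and Ryk, 4 R-spondins and 4 secreted frizzled-related proteins (Sfrp). They make up 42 of the 23787 genes named on the array, and 54 probes read them. Each of the 6 groups had 1 array. The tumour-derived Pik3ca/Trp53 culture carried Pik3caH1047R, a mutant that raises PI3-kinase activity, together with Trp53 loss, and was regrown from a subcutaneous lesion whose histology label reads adenocarcinoma. Its source, Pik3ca/Trp53, is the culture of that genotype from before inoculation. The tumour-derived Apc/Trp53 culture carried Apc580D, a truncating allele of Apc, together with Trp53 loss, and came from a lesion labelled cyst. Apc/Trp53 is its source. The Trp53 loss culture had no further allele, and the control was Trp53flox/flox organoids with the vector pLKO.1. The design text names 3 pairs, and the other pair was not analysed here. The labels do not say how Trp53 was lost, how many animals or clones stand behind a culture, or whether host cells were removed from the tumour-derived cultures.

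Wnt proteins are secreted lipid-modified ligands that bind frizzled receptors. With Lrp5 or Lrp6 as co-receptor they stop the destruction complex, which holds Apc and GSK3, from removing beta-catenin, and beta-catenin then switches on target genes such as Axin2. Ror1, Ror2 and Ryk take part in branches that do not use beta-catenin. R-spondins bind the Lgr4, Lgr5 and Lgr6 receptors and protect frizzleds from the ubiquitin ligases Rnf43 and Znrf3, and Sfrp proteins bind Wnts outside the cell. In the female tract Wnt7a, Wnt4 and Wnt5a are known for their part in forming the Müllerian duct, from which the oviduct grows. All 6 cultures were grown with 250 ng/ml R-spondin1 and 2.5 μM CHIR-99021, an inhibitor of GSK3. Every group, the control included, thus shared these agents. The medium further held 50 ng/ml EGF, 100 ng/ml Noggin, 10 μM Y27632 and 1 μM Jagged-1.

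RefSeq (GRCm38.p6) gives a promoter window for 28 of the 42 genes, 31 windows in all, and 4 are printed. Wnt5b and Wnt11 differed in the same direction in both tumour-derived pairs and hold a motif, Fzd10 was dim on the tumour-derived Pik3ca/Trp53 array alone, and Sfrp2 was above background there alone. Each runs 5′ to 3′ on the gene's strand over the 250 bases before the start. Wnt5b lies at chr6:119449387-119449636, minus strand, and Wnt11 at chr7:98834862-98835111, plus strand, each being the start with the motif among several starts of its gene. Capitals mark the motif CTTTGAT, or its reverse complement ATCAAAG, a match to the sequence bound by TCF and LEF, the partners of beta-catenin. Fzd10 lies at chr5:128600856-128601105, plus strand, and Sfrp2 at chr3:83766071-83766320, plus strand, with every CG in capitals.
Wnt5b: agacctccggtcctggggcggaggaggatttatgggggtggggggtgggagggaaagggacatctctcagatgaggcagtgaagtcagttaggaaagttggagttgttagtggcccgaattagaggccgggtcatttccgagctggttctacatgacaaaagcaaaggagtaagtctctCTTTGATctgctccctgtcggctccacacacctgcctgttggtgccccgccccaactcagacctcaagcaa
Wnt11: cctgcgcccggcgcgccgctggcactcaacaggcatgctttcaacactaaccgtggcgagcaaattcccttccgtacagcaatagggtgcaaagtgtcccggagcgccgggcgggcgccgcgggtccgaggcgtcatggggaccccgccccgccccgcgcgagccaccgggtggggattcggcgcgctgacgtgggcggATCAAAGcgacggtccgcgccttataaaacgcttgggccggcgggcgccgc
Fzd10: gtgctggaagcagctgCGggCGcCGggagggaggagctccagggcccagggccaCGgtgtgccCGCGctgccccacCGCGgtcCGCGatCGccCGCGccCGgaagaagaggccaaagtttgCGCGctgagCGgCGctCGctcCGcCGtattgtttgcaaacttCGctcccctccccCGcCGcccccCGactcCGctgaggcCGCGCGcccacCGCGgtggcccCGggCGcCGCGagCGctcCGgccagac
Sfrp2: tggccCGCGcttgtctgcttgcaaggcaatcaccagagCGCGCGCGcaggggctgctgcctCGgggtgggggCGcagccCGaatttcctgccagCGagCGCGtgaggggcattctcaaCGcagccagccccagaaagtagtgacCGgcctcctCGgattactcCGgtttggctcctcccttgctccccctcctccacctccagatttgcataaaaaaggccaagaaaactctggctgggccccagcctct
The match began 71 bases before the Wnt5b start and 51 bases before the Wnt11 start. CTTTGAA or CTTTGAT on either strand occurred in 2 of the 31 windows (6.45%), against 2457 of all 32851 windows of this length (7.48%), so the share was near that of all promoters. The Fzd10 window held 37 CG and 76.4% G and C, and the Sfrp2 window 16 CG and 63.6%. Windows of the listed genes had a median of 69.6% G and C with 23 CG, against 52.4% and 6 CG over all windows. These matches and counts describe the letters only.

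Levels are log2 of the background-subtracted signal minus the array's 75th percentile, so 0 is the signal of the spot at that percentile and 1 unit is a 2-fold step. A signal that the scanner did not mark as well above background has only an upper bound on that array. The lowest level that was well above background lay between -4.90 and -4.24 on the 6 arrays, and 45.4% to 51.0% of the 56605 gene probes were marked as well above background. The median SD between copies of a probe was 0.0393 to 0.0836 (log2) across the arrays. The number of arrays, 1 for each group, limits the precision of every value, and differences between 2 arrays have no replicate behind them. A difference is counted here at 2-fold (a log2 difference of at least 1), as a statement about those 2 arrays, and a fold against a dim signal is given as "at least". Both tumour-derived arrays and the control array lay in row 2 of the slide and the other arrays in row 1, so slide row cannot be told apart from the tumour-derived differences or from Trp53 loss minus control. The same holds for Pik3ca/Trp53 and Apc/Trp53 against control. Trp53 itself, read by 1 probe whose place relative to the altered exons is not given in the sources used here, stood at -1.64 in tumour-derived Pik3ca/Trp53 and was dim (-5.09) in Pik3ca/Trp53. It was dim in tumour-derived Apc/Trp53 (-6.70), -3.59 in Apc/Trp53, dim in Trp53 loss (-6.62) and 0.88 in control, and that probe cannot check the labels.

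Markers of other cells were read beside these genes. All 7 epithelial markers were above background on all 6 arrays. Of 11 fibroblast markers, 4 were above background in tumour-derived Pik3ca/Trp53 and 1 in Pik3ca/Trp53, 2 in tumour-derived Apc/Trp53 and 0 in Apc/Trp53, and 0 in Trp53 loss and in control. In the Pik3ca pair 3 of 4 measured fibroblast markers were at least 2-fold higher in the tumour-derived culture than in its source and 0 lower (median log2 difference 1.09), and in the Apc pair 1 of 2 was higher and 0 lower (median 1.88). Col3a1, Dcn, Lum, Thy1, Dpt and Fap were dim on all 6 arrays. The mean level of the fibroblast list ran from -3.67 in tumour-derived Pik3ca/Trp53 to -4.90 in Apc/Trp53. Squamous and basal markers numbered 5 of 6 above background in tumour-derived Pik3ca/Trp53 and 4 of 6 in Pik3ca/Trp53, with mean levels of 0.30 and -3.27, and 2 of 6 in tumour-derived Apc/Trp53 against 5 of 6 in Apc/Trp53. The keratin genes Krt14 and Krt5 were 237-fold and at least 209.6-fold higher in tumour-derived Pik3ca/Trp53 than in its source. Of 7 secretory oviduct markers, 1 was at least 2-fold higher and 4 lower in tumour-derived Pik3ca/Trp53 than in its source (median -1.09), with mean levels of -0.96 and 1.55, and Msx1 among them was 251-fold lower. In the Apc pair 3 of 6 measured secretory markers were higher and 1 lower (median 0.65). Multiciliated cell markers were 2-fold lower for 6 of 6 measured genes in Trp53 loss against control (median log2 difference -1.80), with Dnah5 and Dnah9 dim on all arrays. In these bulk samples fewer cells of a type and less RNA per cell cannot be told apart.

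Of the 42 genes, 31 were above background on at least 1 array, 20 on all 6 and 11 on none. The 11 genes above background on no array were the ligands Wnt2, Wnt2b, Wnt3, Wnt3a, Wnt8a, Wnt8b, Wnt9b and Wnt10b, with Rspo2, Rspo4 and Sfrp4. By role, 11 of 19 ligands and 2 of 4 R-spondins were above background on at least 1 array, as were 3 of 4 Sfrp genes. All 10 frizzleds, both LRP co-receptors and all 3 of Ror1, Ror2 and Ryk were above background somewhere. The number of genes above background was 28 in tumour-derived Pik3ca/Trp53 and 22 in Pik3ca/Trp53, 27 in tumour-derived Apc/Trp53 and 25 in Apc/Trp53, and 23 in both Trp53 loss and control. Over the 5 comparisons, 23 of the 31 were at least 2-fold apart in 1 or more, and the same share over all genes was not computed. The 8 that never were are Wnt1, Wnt5a, Fzd4, Fzd6, Lrp5, Lrp6, Ryk and Sfrp5.

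Among the ligands, Wnt5b was higher in both tumour-derived cultures than in their sources. Wnt5b is a close relative of Wnt5a that mostly signals without beta-catenin. Its level was 2.59 in tumour-derived Pik3ca/Trp53 and -2.08 in Pik3ca/Trp53, -1.33 in tumour-derived Apc/Trp53 and -2.59 in Apc/Trp53, and -2.30 in Trp53 loss and -0.23 in control. It was 25.5-fold higher in tumour-derived Pik3ca/Trp53 than in its source and 2.39-fold higher in tumour-derived Apc/Trp53 than in its source, while the 3 Trp53-loss cultures from before inoculation lay below control. Wnt10a, a ligand known from teeth, hair and other skin appendages, was above background in the tumour-derived cultures only, at -1.28 in tumour-derived Pik3ca/Trp53 and -2.67 in tumour-derived Apc/Trp53. The other 4 arrays held it at -6.63 to -6.07, dim throughout. The differences were at least 7.80-fold for the Pik3ca pair and at least 4.70-fold for the Apc pair.

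Wnt11 went the other way in both pairs. This ligand is best known for beta-catenin-independent signalling and for branching of the kidney ducts. It stood at -4.49 in tumour-derived Pik3ca/Trp53, where 1 of its 2 probes was dim, and at 0.59 in Pik3ca/Trp53. In tumour-derived Apc/Trp53 it was -1.53 and in Apc/Trp53 -0.21, with -0.13 in Trp53 loss and -1.11 in control. That made it at least 27.8-fold lower in tumour-derived Pik3ca/Trp53 and 2.51-fold lower in tumour-derived Apc/Trp53 than in their sources.

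Wnt6 was read in the Apc cultures only. Its level was -0.32 in tumour-derived Apc/Trp53 and -3.94 in Apc/Trp53, a 12.3-fold difference. On the other 4 arrays it was dim, at -6.77 to -5.17.

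Wnt4, Wnt7a, Wnt7b and Wnt9a lay higher in tumour-derived Pik3ca/Trp53 than in its source and lower in tumour-derived Apc/Trp53 than in its source. In the Apc pair Wnt4 entered through the source array, so its direction there was fixed by the filter. Wnt4, whose loss in mice leaves no Müllerian duct, stood at -0.59 in tumour-derived Pik3ca/Trp53 and -2.79 in Pik3ca/Trp53 (4.59-fold higher), was dim in tumour-derived Apc/Trp53 against -3.87 in Apc/Trp53 (at least 1.79-fold lower), and was -2.29 in Trp53 loss and -1.17 in control. Wnt9a, known from joint formation, was -1.29 in tumour-derived Pik3ca/Trp53 and -2.75 in Pik3ca/Trp53, -3.91 in tumour-derived Apc/Trp53 and -2.96 in Apc/Trp53, and -2.43 in Trp53 loss and 0.85 in control. The control array thus held the most Wnt9a of the 6, and Trp53 loss was 9.65-fold below it.

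Wnt7a, the ligand that patterns the oviduct and uterus in mice, was above background everywhere. It was 2.45 in tumour-derived Pik3ca/Trp53 and 1.24 in Pik3ca/Trp53, 2.88 in tumour-derived Apc/Trp53 and 3.76 in Apc/Trp53, and 2.87 in Trp53 loss and 3.97 in control. Pik3ca/Trp53 was the lowest array, 3.11-fold below Trp53 loss, and Trp53 loss was 2.13-fold below control. Its relative Wnt7b was 1.14 in tumour-derived Pik3ca/Trp53 and 0.51 in Pik3ca/Trp53, -0.64 in tumour-derived Apc/Trp53 and 0.61 in Apc/Trp53, and 1.49 in Trp53 loss and 2.36 in control. Only tumour-derived Apc/Trp53 against its source passed 2-fold for Wnt7b among the 5 comparisons, at 2.38-fold lower.

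Wnt16, a ligand known for its part in cortical bone, was the one ligand at least 2-fold higher in Trp53 loss than in control, by 4.58-fold. It stood at -1.23 in tumour-derived Pik3ca/Trp53 and -1.0 in Pik3ca/Trp53, 0.40 in tumour-derived Apc/Trp53 and 0.21 in Apc/Trp53, and 1.36 in Trp53 loss and -0.83 in control. The Trp53 loss array is the highest of the 6, so Wnt16 was 5.15-fold lower in Pik3ca/Trp53 and 2.22-fold lower in Apc/Trp53 than in Trp53 loss, both read against that same array. Against control the Pik3ca/Trp53 difference was -0.17 on the log2 scale and the Apc/Trp53 difference was 1.05, the opposite direction. Wnt5a and Wnt1 stayed within narrower ranges, from -0.89 to 0.31 and from -1.53 to -1.08.

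**Figure D1:**
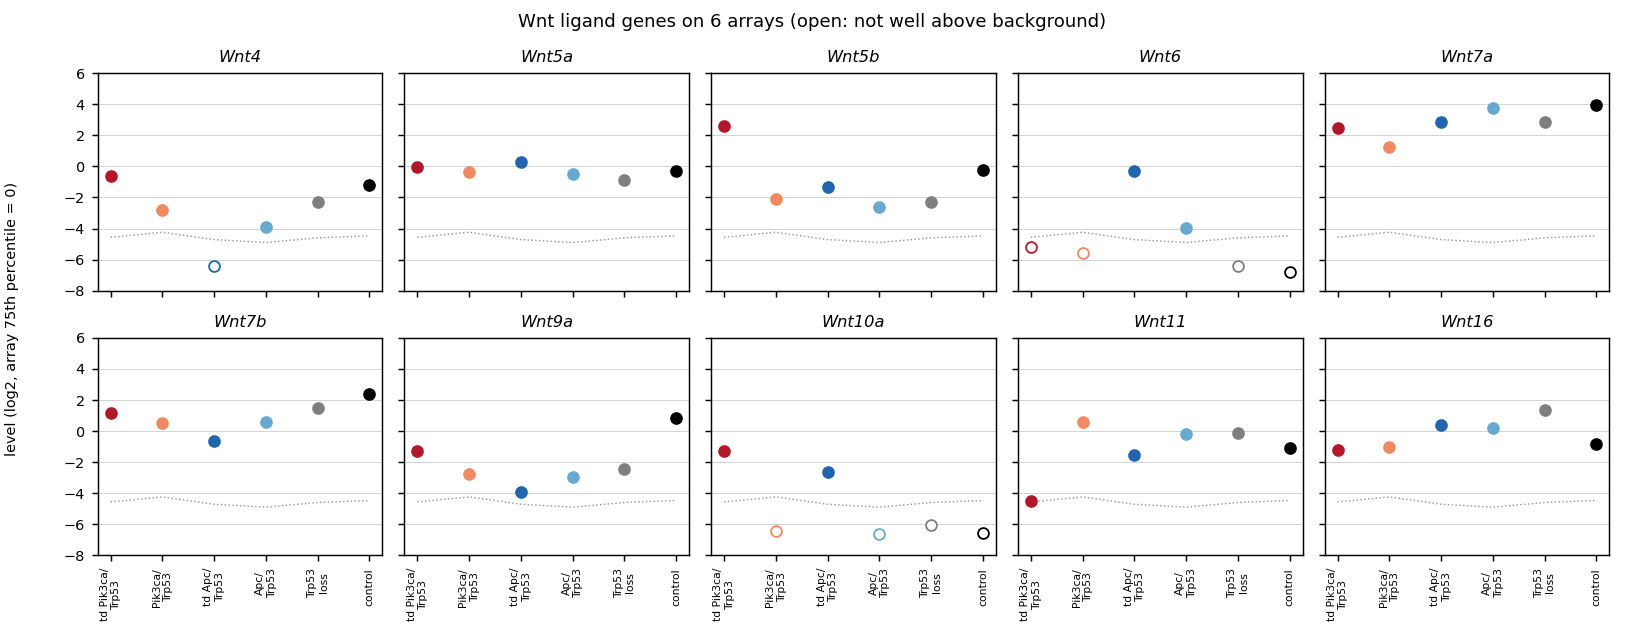
Levels of 10 Wnt ligand genes (log2 of the signal minus the array's 75th percentile, vertical axis) on the 6 arrays, where td stands for tumour-derived, open points were not well above background and the dotted line is the lowest level above background on each array. Wnt10a is above background on the tumour-derived arrays only, Wnt6 on the Apc arrays only, and Wnt9a is highest on the control array.

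Among the frizzleds, Fzd10 gave the largest difference of the whole list. Fzd10 belongs with Fzd4 and Fzd9 to 1 subfamily of these receptors. It was dim in tumour-derived Pik3ca/Trp53 (-6.67), against 3.69 in Pik3ca/Trp53. It was 4.93 in tumour-derived Apc/Trp53, 5.21 in Apc/Trp53, 4.60 in Trp53 loss and 3.33 in control. Fzd10 was therefore at least 306-fold lower in tumour-derived Pik3ca/Trp53 than in its source, and it was 2.41-fold higher in Trp53 loss than in control. Squamous and basal markers above background numbered 5 of 6 in tumour-derived Pik3ca/Trp53 and 4 of 6 in its source. They also numbered 5 of 6 in Apc/Trp53, where Fzd10 was highest, and their part in the result was not tested. A single probe reads this gene.

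Fzd7, a receptor that intestinal stem cells of mice use, was higher in both tumour-derived cultures than in their sources. Its levels were 0.96 in tumour-derived Pik3ca/Trp53 and -1.33 in Pik3ca/Trp53 (4.88-fold), -1.29 in tumour-derived Apc/Trp53 and -2.44 in Apc/Trp53 (2.21-fold), and -0.93 in Trp53 loss and -0.61 in control. Apc/Trp53 was the lowest array, 2.84-fold below Trp53 loss.

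Fzd9 differed in opposite directions in the pairs. In each pair it entered through the array above background, so the filter fixed its direction. It was -2.89 in tumour-derived Pik3ca/Trp53 and dim in Pik3ca/Trp53 (at least 2.55-fold higher), and dim in tumour-derived Apc/Trp53 against -2.42 in Apc/Trp53 (at least 4.79-fold lower). Trp53 loss stood at -3.01 and control at -3.85. All these values lie within 3 log2 units of the background limit, and Pik3ca/Trp53 was at least 2.34-fold below Trp53 loss.

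Fzd1 and Fzd2, of the same subfamily as Fzd7, were above background on every array. Fzd1 was 1.21 in tumour-derived Pik3ca/Trp53 and 0.77 in Pik3ca/Trp53, 0.43 in tumour-derived Apc/Trp53 and 1.02 in Apc/Trp53, and 1.17 in Trp53 loss and 2.40 in control. Each of the 5 cultures labelled with Trp53 loss lay below control for Fzd1, Trp53 loss by 2.34-fold. Fzd2 was 0.45 in tumour-derived Pik3ca/Trp53 and 1.0 in Pik3ca/Trp53, 1.30 in tumour-derived Apc/Trp53 and 0.62 in Apc/Trp53, and -0.22 in Trp53 loss and 0.20 in control. The largest Fzd2 difference among the 5 comparisons was 2.33-fold higher in Pik3ca/Trp53 than in Trp53 loss.

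Fzd3, a receptor of planar cell polarity, was -3.37 in tumour-derived Pik3ca/Trp53 and -2.34 in Pik3ca/Trp53, -1.89 in tumour-derived Apc/Trp53 and -2.10 in Apc/Trp53, and -2.14 in Trp53 loss and -2.44 in control. Its one 2-fold difference, 2.03-fold lower in tumour-derived Pik3ca/Trp53 than in its source, lies just past the threshold. Fzd8 was -2.09 in tumour-derived Pik3ca/Trp53 and -1.93 in Pik3ca/Trp53, -2.82 in tumour-derived Apc/Trp53 and -1.78 in Apc/Trp53, and -1.60 in Trp53 loss and -1.28 in control. Fzd8 and its subfamily partner Fzd5 were 2.05-fold and 2.02-fold lower in tumour-derived Apc/Trp53 than in Apc/Trp53. The Fzd5 fold rests on 1 probe, at -3.45 against -2.44. The other Fzd5 probe was dim on both arrays and lay the other way, at -4.69 against -5.05. The Fzd5 levels that follow average both probes. Fzd5 averaged -3.14 in tumour-derived Pik3ca/Trp53 and -3.57 in Pik3ca/Trp53, -4.07 in tumour-derived Apc/Trp53 and -3.75 in Apc/Trp53, and -3.12 in Trp53 loss and -3.28 in control, but 1 of its 2 probes was dim on 4 of the arrays. Fzd4, which also serves the ligand Norrin, and Fzd6, a partner of Fzd3 in planar cell polarity, ran from -2.33 to -1.39 and from -0.20 to 1.20.

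The co-receptors Lrp5 and Lrp6 were above background on all 6 arrays and passed 2-fold in none of the 5 comparisons. Lrp5 was 0.90 in tumour-derived Pik3ca/Trp53 and 0.22 in Pik3ca/Trp53, 0.31 in tumour-derived Apc/Trp53 and 0.23 in Apc/Trp53, and 0.20 in Trp53 loss and 0.14 in control. Tumour-derived Pik3ca/Trp53 was 1.60-fold above its source for Lrp5, and the other 5 arrays lie close together. Lrp6 was -0.91 in tumour-derived Pik3ca/Trp53 and -0.76 in Pik3ca/Trp53, -0.28 in tumour-derived Apc/Trp53 and -0.50 in Apc/Trp53, and -0.25 in Trp53 loss and 0.33 in control. Its 2 probes disagree, since 1 of them holds most of the distance between control and the other arrays.

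Ror1 and Ror2 are receptor tyrosine kinase-like receptors of Wnt5a, and Ryk is a related atypical receptor. Ror1 was -3.12 in tumour-derived Pik3ca/Trp53 and -1.07 in tumour-derived Apc/Trp53, and dim on the other 4 arrays (-6.86 to -4.75). It was thus at least 2.17-fold higher in tumour-derived Pik3ca/Trp53 and at least 14.3-fold higher in tumour-derived Apc/Trp53 than in their sources, by 1 probe, the other being dim on all arrays. Both arrays also had the fibroblast marker Pdgfra at least 2.26-fold and at least 7.80-fold above their sources, and the part of such cells in the result was not tested. With each array set to its median, quantile normalization or no filter on dim probes, the Ror1 difference of the Pik3ca pair stayed positive but under 2-fold (log2 0.97, 0.99 and 0.40).

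Ror2 was -1.11 in tumour-derived Pik3ca/Trp53 and -3.43 in Pik3ca/Trp53, -0.47 in tumour-derived Apc/Trp53 and -0.05 in Apc/Trp53, and -2.45 in Trp53 loss and -0.42 in control. It was 4.98-fold higher in tumour-derived Pik3ca/Trp53 than in its source, 5.26-fold higher in Apc/Trp53 than in Trp53 loss, and in Trp53 loss 4.08-fold below control. The arrays thus fall apart with Pik3ca/Trp53 and Trp53 loss lowest, tumour-derived Pik3ca/Trp53 between, and the Apc and control arrays highest. Ryk held between 2.45 and 3.0 on all 6, at 2.56 in tumour-derived Pik3ca/Trp53, 2.75 in Pik3ca/Trp53, 2.81 in tumour-derived Apc/Trp53, 3.0 in Apc/Trp53, 2.88 in Trp53 loss and 2.45 in control.

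**Figure D2:**
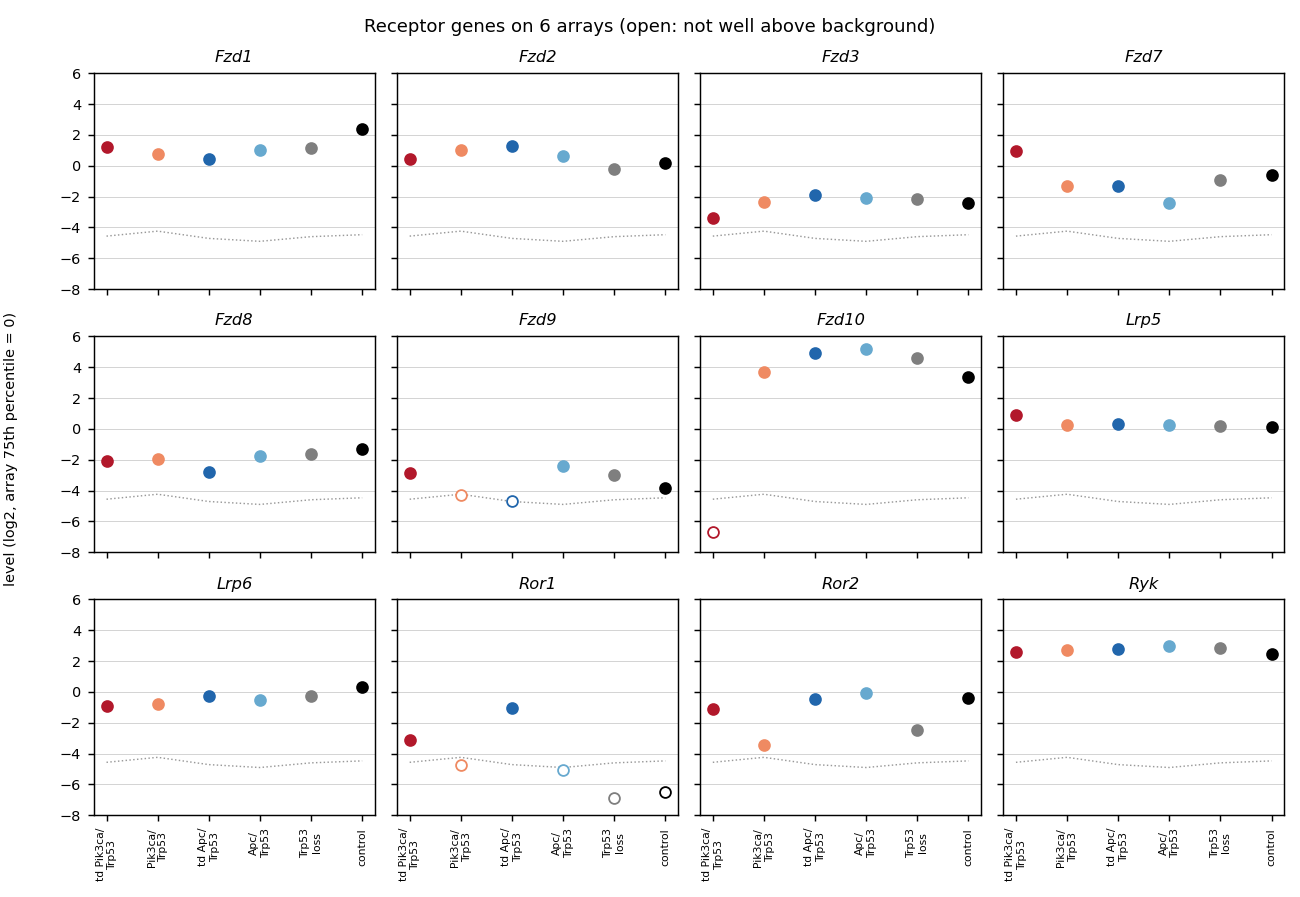
Levels of 12 receptor and co-receptor genes (log2 of the signal minus the array's 75th percentile, vertical axis) on the 6 arrays, where td stands for tumour-derived, open points were not well above background and the dotted line is the lowest level above background on each array. Fzd10 is dim on the tumour-derived Pik3ca/Trp53 array alone, Ror1 is above background on the tumour-derived arrays alone, and Lrp5 and Ryk span less than 1 log2 unit.

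R-spondin and Sfrp transcripts were mostly dim. Rspo1, the gene of the protein that the medium supplied, was above background in the tumour-derived cultures only, at -2.02 in tumour-derived Pik3ca/Trp53 and -4.20 in tumour-derived Apc/Trp53. The other 4 arrays were dim, from -6.63 to -5.80. Against their sources the difference was at least 4.67-fold for tumour-derived Pik3ca/Trp53 and at least 1.63-fold for tumour-derived Apc/Trp53, short of 2-fold. Rspo3, the R-spondin best known from stroma and blood vessels, was likewise above background at -3.64 in tumour-derived Pik3ca/Trp53 and -2.96 in tumour-derived Apc/Trp53 and dim elsewhere (-6.85 to -5.67). Its bounds were at least 1.51-fold and at least 3.83-fold.

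Sfrp1 and Sfrp2, antagonists that bind Wnts and that stromal cells often make, were above background in tumour-derived Pik3ca/Trp53 alone. Sfrp1 was 0.09 there and -7.15 to -6.45, dim, on the other 5 arrays. Sfrp2 was -1.50 there and -7.23 to -5.48, dim, on the other 5. That placed tumour-derived Pik3ca/Trp53 at least 20.2-fold above its source for Sfrp1 and at least 6.67-fold for Sfrp2. The same array held Postn, a matrix gene on the fibroblast list, at least 89.9-fold above its source, while Col3a1, Dcn and Lum were dim on it, and the part of fibroblasts or of squamous cells in the result was not tested. Sfrp5 was above background in tumour-derived Apc/Trp53 (-4.13) and Apc/Trp53 (-4.73) and dim on the other 4 arrays, with no 2-fold difference.

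**Figure D3:**
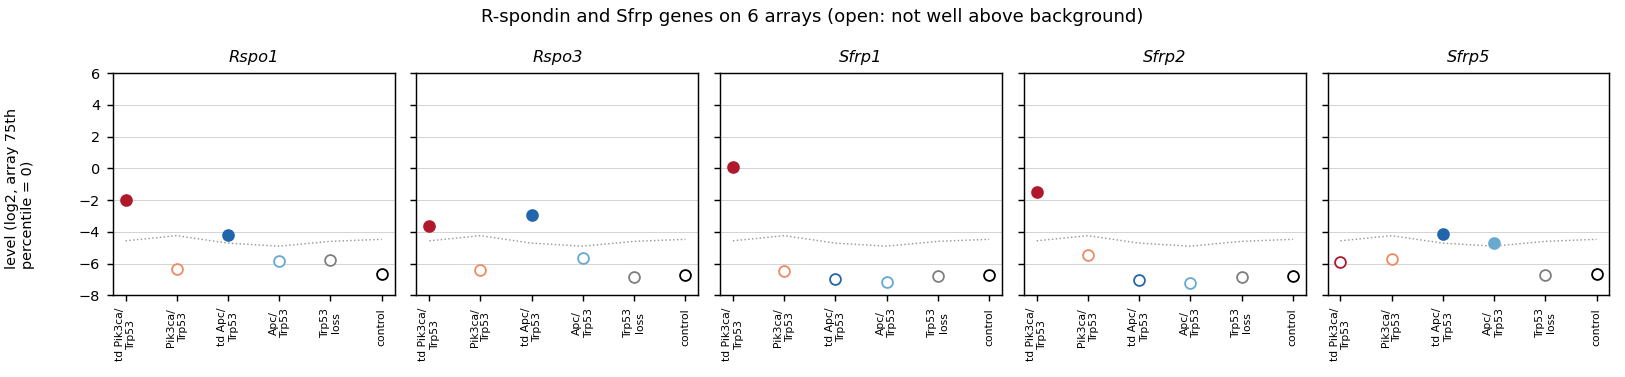
Levels of the 2 R-spondin and 3 Sfrp genes that were above background on any array (log2 of the signal minus the array's 75th percentile, vertical axis), where td stands for tumour-derived, open points were not well above background and the dotted line is the lowest level above background on each array. Rspo1 and Rspo3 are above background on both tumour-derived arrays and no other, and Sfrp1 and Sfrp2 on the tumour-derived Pik3ca/Trp53 array alone.

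Counted over the list, the tumour-derived Pik3ca/Trp53 culture differed from its source in the most genes. There were 12 genes at least 2-fold higher among 29 measured (41.4%), against 11.4% of all 14727 genes compared, and 3 lower (10.3%) against 9.21% of all genes. The median log2 difference was 0.60 over these 29 and -0.05 over all genes. By role, 5 of 10 ligands, 2 of 10 frizzleds, 2 of 3 of Ror1, Ror2 and Ryk, 1 of 2 R-spondins and 2 of 2 Sfrp genes were higher. The R-spondin and Sfrp genes measured here were all dim in the source and entered through the tumour-derived array, so none could be called lower. The share lower was near that of all genes. 6 of the 12 higher genes had a dim source signal and entered through the tumour-derived array, and with probes above background on both arrays 6 were higher and the median was 0.18 over 21 genes, against -0.08 over all genes. Without a filter on dim probes the median of the 42 was -0.15, against -0.32 over all genes. Squamous and basal markers were higher and secretory markers lower in the same comparison, as given above, and their part in the result was not tested.

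In tumour-derived Apc/Trp53 against its source, 6 of 29 genes were at least 2-fold higher (20.7%), against 9.54% of all 14888 genes, and 5 were lower (17.2%), against 6.39%. The median was 0.19, and -0.03 over all genes. The higher genes were Ror1, Wnt6, Wnt10a, Rspo3, Wnt5b and Fzd7, and the lower ones Fzd9, Wnt11, Wnt7b, Fzd8 and Fzd5. Of 27 genes measured in both pairs, 4 were higher in both (Wnt5b, Wnt10a, Fzd7 and Ror1), 1 was lower in both (Wnt11) and 1, Fzd9, had opposite directions. Wnt10a and Ror1 were dim on both source arrays and entered through the tumour-derived arrays, so their direction was fixed by the filter. Rspo3, higher in the Apc pair, entered the same way. Fzd9 was dim in Pik3ca/Trp53 and in tumour-derived Apc/Trp53, so both of its directions were fixed by the filter. The share of all genes alike in both pairs was not computed. With each array set to its median, Wnt5b (log2 0.92) and Fzd7 (0.80) in the Apc pair fell under 2-fold. Ror1 (0.97) did so in the Pik3ca pair. Wnt11 then stayed lower in both pairs, and Wnt10a higher, in the direction that the filter fixed. The same scaling gave 4 higher and 8 lower genes in the Apc pair with a median of -0.16. Over all genes it gave 936 higher and 1837 lower with a median of -0.37. Probes above background on both arrays gave 3 higher with a median of 0.09 over 23 genes, against -0.04 over all genes.

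Pik3ca/Trp53 against Trp53 loss gave 1 higher gene of 23 (Fzd2), where 8.11% of all 14237 genes were higher, and 3 lower (Wnt16, Wnt7a and Fzd9), where 6.03% were. Members had a median of -0.33, all genes one of 0.02. Ror2 (-0.99) and Wnt7b (-0.98) lay just inside the threshold. Apc/Trp53 against Trp53 loss gave 1 higher gene of 25 (Ror2), where 3.71% of all 14463 genes were higher, and 3 lower (Wnt4, Fzd7 and Wnt16), where 4.25% were, with medians of -0.07 and 0.02. These 2 comparisons and Trp53 loss minus control share the Trp53 loss array. With the control array in its place, 1 gene was higher (9.35% of all genes) and 8 were lower (8.42%) in Pik3ca/Trp53, and 3 were higher (5.93%) and 6 lower (8.82%) in Apc/Trp53.

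Trp53 loss against control gave 2 higher genes of 23 (8.70%), Wnt16 and Fzd10, where 4.12% of all 14361 genes were higher. It gave 6 lower genes (26.1%), Wnt9a, Wnt5b, Ror2, Fzd1, Wnt4 and Wnt7a, where 6.1% of all genes were lower. The median was -0.32, and 0.03 over all genes. Ligands made up 4 of the 6 lower genes, out of 9 ligands measured. Multiciliated markers were lower in the same comparison, as given above, and their part in the result was not tested.

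**Figure D4:**
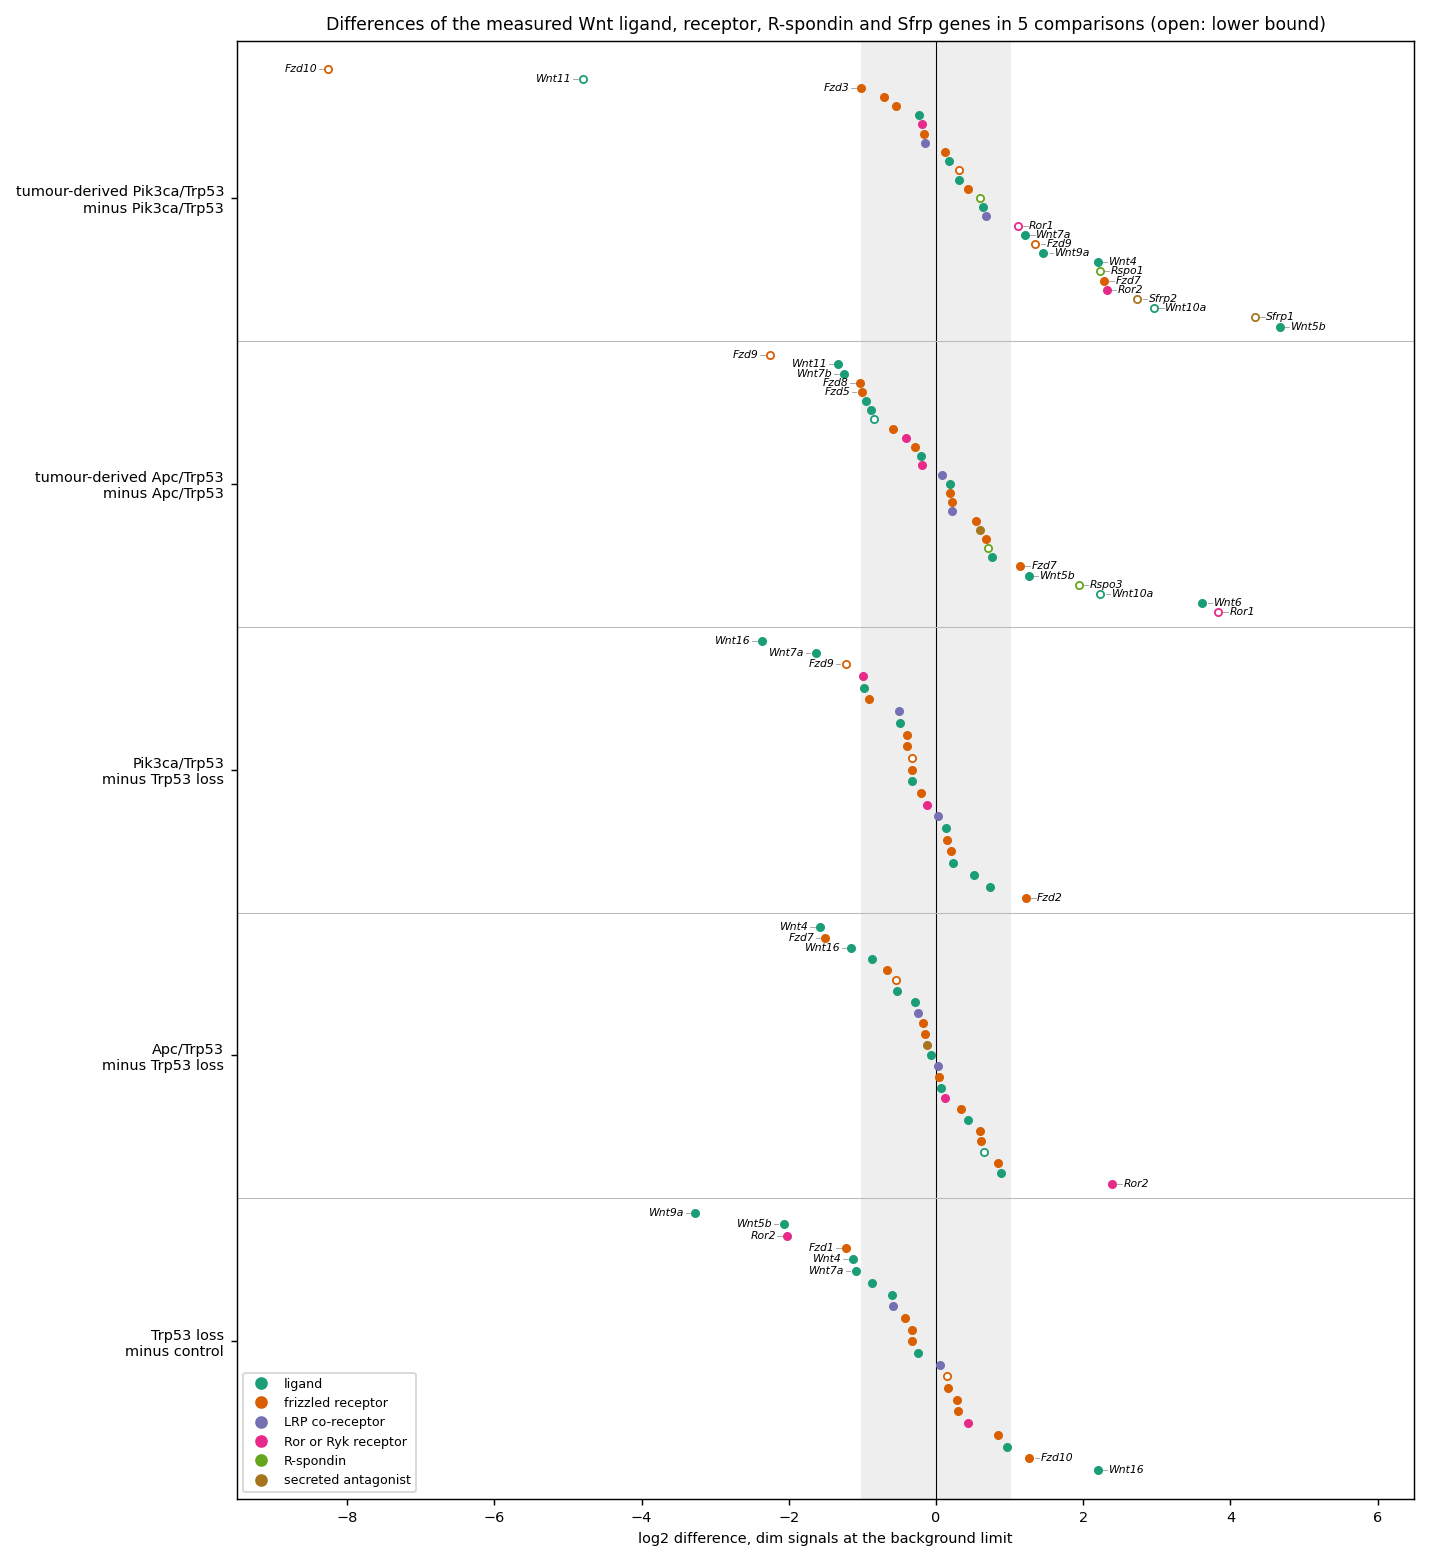
Log2 differences (horizontal axis) of every measured gene of the list in 5 comparisons of 2 arrays, coloured by role, with open points for lower bounds, names for genes at least 2-fold apart and the grey band within 2-fold. Tumour-derived Pik3ca/Trp53 minus its source has 12 named genes on the right and Fzd10 at -8.26 on the far left, and Trp53 loss minus control has 6 named genes on the left and 2 on the right.

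Pooled tests were possible for contrasts that more than 1 culture repeats, and none of the listed genes passed them. A limma fit of both tumour-derived arrays against both sources, blocked on genotype (residual degrees of freedom: 1), gave 0 of 14238 genes at an adjusted p under 0.05, 0% of the genes tested. At an unadjusted p under 0.05 it had 5 of the 29 listed genes, namely Wnt10a, Rspo3, Fzd7, Ror1 and Rspo1, each with a limma adjusted p of 0.999. All of these but Fzd7 were dim on both source arrays and entered the fit through the tumour-derived arrays, so that their direction was fixed by the filter. With probes above background on all 4 arrays, 1 of 20 listed genes had an unadjusted p under 0.05. A limma fit of the 3 Trp53-loss cultures from before inoculation against control (residual degrees of freedom: 2) gave 0 of 15025 genes. The share of all genes with an unadjusted p under 0.05 was not computed for either limma fit. In the Trp53-loss fit 4 of 25 listed genes had an unadjusted p under 0.05. Wnt9a led with a log2 difference of -3.55 ± 0.31 (SE), lower in 3 of 3 cultures, with a limma adjusted p of 0.168. Wnt5b differed by -2.09 ± 0.30 (limma adjusted p = 0.214), Fzd1 by -1.41 ± 0.27 (0.332) and Wnt7b by -1.49 ± 0.50 (0.576), each lower in 3 of 3 cultures. All 3 cultures were set against the same control array, so these are not separate agreements. Slide row cannot be told apart from this contrast either. Both fits take signals as measured, dim ones included. The Trp53-loss fit further assumes that the single control varies like the other cultures.

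Genes on either side of the ligand and receptor step were read as lists. Of 28 beta-catenin target genes, 12 were at least 2-fold lower and 3 higher in tumour-derived Pik3ca/Trp53 than in its source (22 measured, median -1.18), while 12 were higher and 1 lower in tumour-derived Apc/Trp53 than in its source (23 measured, median 1.15). Lgr5, the R-spondin receptor of stem cells, was 30.8-fold lower in tumour-derived Pik3ca/Trp53 than in its source, and Axin2 was at least 14.5-fold lower. In the Apc pair Axin2 was 2.47-fold higher and the feedback inhibitor Nkd1 20.7-fold higher. In Apc/Trp53 against Trp53 loss 8 of 23 targets were higher and 0 lower (median 0.64), in Pik3ca/Trp53 against Trp53 loss 4 of 23 were higher and 2 lower (0.21), and in Trp53 loss against control 2 of 22 were higher and 1 lower (0.06). The mean level of the target list was -1.77 in tumour-derived Pik3ca/Trp53 and -1.03 in Pik3ca/Trp53, 0.46 in tumour-derived Apc/Trp53 and -0.48 in Apc/Trp53, and -1.25 in Trp53 loss and -1.36 in control.

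The list of R-spondin receptors and their ligases shares Lgr5, Rnf43 and Znrf3 with the target list. All its genes called in the tumour-derived pairs were shared ones, so it is no separate reading. In Apc/Trp53 against Trp53 loss 0 of 4 measured genes passed 2-fold. In tumour-derived Pik3ca/Trp53 3 of 5 were lower than in its source, Lgr5 and the ligases Rnf43 (3.38-fold) and Znrf3 (at least 2.70-fold). In tumour-derived Apc/Trp53 2 of 4 were higher, Rnf43 by 2.49-fold and Znrf3 by 2.39-fold. Lgr4, the widely expressed receptor, passed 2-fold in none of the 5 comparisons. Lgr5 was 18.1-fold higher in Trp53 loss than in control.

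Wnt antagonists outside the Sfrp family were higher in the Apc cultures. Their list shares Dkk1, Wif1 and Apcdd1 with the target list. In tumour-derived Apc/Trp53 4 of 7 measured antagonists were higher than in its source, Wif1 by 15.4-fold, Dkk3 by at least 14.4-fold, Apcdd1 by 5.60-fold and Dkk2 by 3.87-fold, and 0 were lower (median 1.95). In Apc/Trp53 4 of 5 were higher than in Trp53 loss (median 2.60), led by Dkk2 at 22.7-fold. Tumour-derived Pik3ca/Trp53 against its source had 0 higher and 1 lower of 4, Apcdd1 (median -0.02). Pik3ca/Trp53 against Trp53 loss had 2 higher and 0 lower of 5 (median 0.03), and Trp53 loss against control 0 higher and 2 lower of 5, Dkk3 by 3.44-fold and Dkk2 by 2.23-fold (median -0.43).

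Genes of Wnt secretion and maturation had 1 higher and 1 lower in 4 of the comparisons. The list's median was 0.21 in tumour-derived Pik3ca/Trp53 minus its source, 0.25 in Pik3ca/Trp53 minus Trp53 loss, -0.02 in Apc/Trp53 minus Trp53 loss and 0.16 in Trp53 loss minus control. Tumour-derived Apc/Trp53 minus its source had 2 higher and 1 lower of 8 (median 0.51). Porcn, the enzyme that lipid-modifies Wnts, and Wls, which carries them to the surface, were above background on every array and never 2-fold apart. The Apc pair had Gpc3, a cell-surface proteoglycan, 10.0-fold higher and the sulfatase Sulf1 at least 7.60-fold higher. Trabd2b, a protease that cuts Wnts, was at least 5.32-fold higher in tumour-derived Pik3ca/Trp53 and at least 2.49-fold lower in tumour-derived Apc/Trp53 than in their sources.

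Other receptors and planar polarity genes had medians near those of all genes, at 0.07 in tumour-derived Pik3ca/Trp53 minus its source (2 higher, 3 lower of 17), 0.06 in tumour-derived Apc/Trp53 minus its source (2 higher, 0 lower of 16), 0.11 in Pik3ca/Trp53 minus Trp53 loss (2 higher, 1 lower of 14), 0.16 in Apc/Trp53 minus Trp53 loss (0 of 14) and 0.11 in Trp53 loss minus control (1 higher, 1 lower of 14). Reck, which with Adgra2 helps Wnt7a and Wnt7b reach their receptors, was 12.6-fold higher in tumour-derived Pik3ca/Trp53 than in its source. Tspan12, a partner of Fzd4, was 3.98-fold lower in tumour-derived Pik3ca/Trp53 and 2.99-fold higher in tumour-derived Apc/Trp53 than in their sources.

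**Figure D5:**
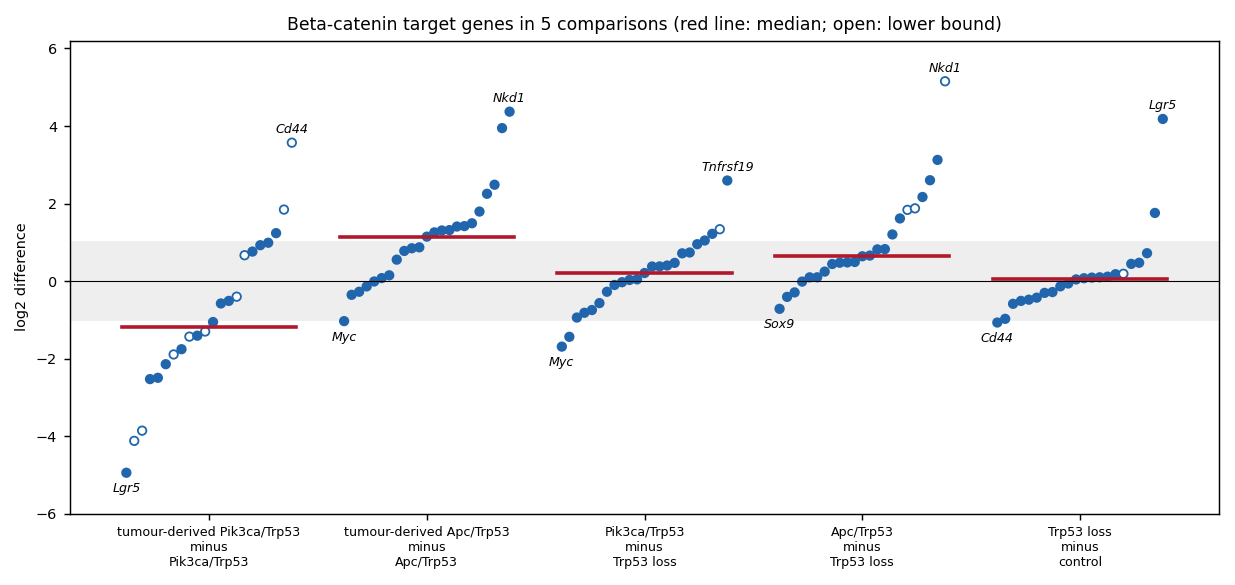
Log2 differences (vertical axis) of the measured beta-catenin target genes in 5 comparisons of 2 arrays, with open points for lower bounds, the red line at the median and the grey band within 2-fold. The median lies at -1.18 for tumour-derived Pik3ca/Trp53 minus its source and at 1.15 for tumour-derived Apc/Trp53 minus its source.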

How the data were processed

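RNA of 6 organoid cultures was labelled with Cy3 from 0.2 µg and hybridised to 1-colour Agilent arrays, 1 slide and 1 scan, per the labels' protocols and the file headers. The authors deposited scanner files with background-subtracted intensity per spot, which the submitters' processing notes credit to Agilent Feature Extraction 11.0.1.1, and a value table of log2 values for 2047 probes. Set against the scanner files, differences between columns of the deposited table equal those of the log2 intensities up to a constant (slope 1). The medians of its columns are -0.05 in tumour-derived Pik3ca/Trp53, 0.15 in Pik3ca/Trp53, -0.20 in tumour-derived Apc/Trp53, -0.32 in Apc/Trp53, -0.02 in Trp53 loss and 0.03 in control. Its centring and choice of probes stay unknown, it holds 8 probes of 6 listed genes, and it was not used further.

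Control and outlier spots were left out, no spot was saturated, and copies of a probe were averaged. Values are log2 intensity minus the 75th percentile of the array's gene spots. Probes were named by accession through RefSeq (34566 of 56605 probes, 23787 genes). A gene's difference averages the probes that either array has well above background, and a dim signal is raised to its array's lowest level that is above background. A gene's level averages its probes that any of the 6 arrays has above background. Genes were called at 2-fold (log2 of 1). The pooled contrasts used limma 3.58.1 in R 4.3.3 (lmFit, eBayes, Benjamini-Hochberg over all genes tested, threshold 0.05), tested on simulated data. The members, gene lists and thresholds were chosen with earlier results of these data known. Every listed gene is accounted for, with levels given where it was called in at least 1 of 5 comparisons and for Lrp5, Lrp6, Rspo1 and Ryk. From pathway lists, genes among the 4 with the largest called difference in a comparison are named, and Lgr4, Porcn, Wls and the Axin2 difference of the Apc pair were added after their values were seen. Alternatives were other scalings, background correction, filters on dim probes, probe choice, the control as reference and, in limma, left-out cultures, no block and a variance trend.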

Additional observations from a re-analysis of the deposited data

Results flagged for a closer look

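Some genes moved in opposite directions in the Pik3ca and the Apc cultures under the same contrast, each direction resting on 1 pair of arrays. The differences between the pairs were not tested. For tumour-derived minus source, the Pik3ca effect exceeded the Apc effect by 3.04 log2 units for Wnt4 (2.20 and -0.84), by 2.09 for Wnt7a (1.21 and -0.88), by 1.89 for Wnt7b (0.63 and -1.25), by 2.42 for Wnt9a (1.46 and -0.96) and by 3.61 for Fzd9 (1.35 and -2.26). Both Fzd9 values and the Wnt4 value of the Apc pair hold dim signals and are bounds. Their directions were fixed by the filter, since each entered through the array above background. For the double mutants minus Trp53 loss, which share the Trp53 loss array, the Pik3ca effect minus the Apc effect was -2.52 for Wnt7a (-1.64 and 0.89), -1.82 for Fzd9 (-1.23 and 0.59) and -3.38 for Ror2 (-0.99 and 2.39). The Fzd9 value of -1.23 is also a bound whose direction was fixed by the filter.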

How the results depend on the processing

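Of 42 differences named as at least 2-fold, 290 recomputations under other settings left 263 at least 2-fold in the same direction, 27 under 2-fold or turned and 1 of these reversed. That total overstates how firm the calls are, since some settings could hardly undo a call. Dim signals as measured kept 42 of 42, the brightest probe 42 of 42 and probes above background on both arrays 30 of 30. Normexp kept 28 of 42, and the control array as the reference 3 of 8. With each array set to its median, the median of all genes shifted to 0.23 in Trp53 loss minus control, -0.20 in the Pik3ca pair and -0.37 in the Apc pair (tumour-derived minus source), and the split of genes higher and lower became 867 and 619 in Trp53 loss minus control (592 and 876 as reported), 1475 and 1748 in the Pik3ca pair (1678 and 1357 as reported) and 936 and 1837 in the Apc pair (1421 and 951 as reported). Under that scaling Trp53 loss had 4 listed genes above control, as under quantile normalization (4), and the Apc pair had 8 lower. In that setting Wnt4 and Wnt7a in Trp53 loss minus control (-0.93 and -0.89) and Fzd7 and Wnt5b in the Apc pair (0.80 and 0.92) were under 2-fold. Normexp on the median signals, chosen after seeing the data because the files hold no mean signal, left 2 higher and 2 lower in the Apc pair and put 14 of 42 differences under 2-fold. The planned normexp on mean signals was not run. Probes above background on both arrays left 6 higher in the Pik3ca pair and 3 in the Apc pair, since bounded genes drop out. Dim signals as measured gave 3 higher in Apc/Trp53 minus Trp53 loss. With control as the reference 8 were lower in Pik3ca/Trp53, 3 higher and 6 lower in Apc/Trp53, and Wnt16 in Apc/Trp53 reversed to 1.05. No limma setting called a listed gene, including no genotype block (0) and leaving out a culture (0 to 0). Quantile normalization called 76 genes in the Trp53-loss fit, none listed (smallest limma adjusted p 0.0632). Without a filter on dim probes the all-gene median is set by the background limits of the arrays (-0.32 to 0.36). No replicate number pairs the arrays, and the block in the limma fit is genotype. Signals near or under background limit Rspo1, Rspo3, Sfrp1, Sfrp2, Ror1 and Wnt10a, whose folds between tumour-derived cultures and their sources are bounds.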
